A study of Mus musculus with 87 samples.

Results

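Bile acid synthesis, transport and regulation were followed through 10 genes measured by RNA-Seq in mouse liver after partial hepatectomy (PH), sham surgery or no surgery. The genes were chosen by name: *Cyp7a1*, *Cyp8b1*, *Cyp27a1*, *Cyp7b1* and *Baat* for synthesis, *Nr1h4* and *Nr0b2* for regulation, and *Slc10a1*, *Abcb11* and *Abcb4* for transport. They are 10 of the 37991 genes quantified, and all 10 were among the 15396 genes counted as detected, which are those above −1.5 on the log2 RPKM scale in at least 1 library. RPKM is the read number of a gene scaled by its exon length and by the depth of the library.

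Every mouse was a C57BL/6 male, kept on 12 h of light with food given only in the dark. The age given is 12 to 14 weeks, per the study's methods at surgery, so PH mice taken 1 or 4 weeks later were older. Zeitgeber time (ZT) counts hours from lights on. Surgery took place at ZT 2 under isoflurane: in PH mice (X) the larger part of the liver was removed, and sham mice (S) had the abdomen opened with no resection. Each library is the poly(A) RNA of 1 liver. Unoperated mice (C) were taken at the hour of surgery (C0, ZT 2, n = 9), 4 h later (C4, ZT 6, n = 3) and at the 4-week time point (C4W, n = 2). Sham livers were taken at 1 h (S1, n = 6), 4 h (S4, n = 5), 10 h (S10, n = 3), 20 h (S20, n = 3) and 48 h (S48, n = 3). PH livers were taken at 1 h (X1, n = 6), 4 h (X4, n = 3), 10 h (X10, n = 6), 20 h (X20, n = 6), 28 h (X28, n = 3), 36 h (X36, n = 6), 44 h (X44, n = 3), 48 h (X48, n = 5), 72 h (X72, n = 3), 1 week (X1W, n = 3) and 4 weeks (X4W, n = 2). 7 labelled samples, among them all of the 60 h PH group, were not analysed here. Per the study's methods the livers were collected in 3 experimental periods: C0 livers came from all 3, C4 livers from 1 in which no operated mouse was taken, S48, X28, X44, X48, X72 and X1W livers from another, and S10, S20, C4W and X4W livers from the remaining one. S1, S4, X1, X10, X20 and X36 livers came from 2 periods each, as the study lists them. It lists X4 livers from 2 periods too, but only 3 of the 6 labelled X4 livers were analysed here, and whether they span both is not known. Replicate numbers are not tied to a period in the sources used here.

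Hepatocytes make bile acids from cholesterol. The classic route begins with CYP7A1, whose product CYP8B1 can steer towards cholic acid; the alternative route runs through CYP27A1 and CYP7B1, and BAAT joins the finished acid to taurine or glycine. NTCP (*Slc10a1*) takes bile acids up from portal blood, BSEP (*Abcb11*) exports them into bile and MDR2 (*Abcb4*) moves phospholipid into bile beside them. The bile acid receptor FXR (*Nr1h4*) induces *Abcb11* and the repressor SHP (*Nr0b2*), which lowers *Cyp7a1* transcription, and *Cyp7a1* also follows the clock and feeding. After PH the same bile acid pool returns to a smaller liver.

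The genes lie on 8 chromosomes of the mm9 assembly (coordinates from GENCODE vM1 on the same assembly). *Cyp7a1* (ENSMUSG00000028240) spans chr4:6192759-6202780 on the minus strand, *Cyp8b1* (ENSMUSG00000050445) is the single-exon gene at chr9:121823474-121825423, minus strand, *Cyp27a1* (ENSMUSG00000026170) spans chr1:74760148-74784464, plus strand, and *Cyp7b1* (ENSMUSG00000039519) chr3:17971950-18143338, minus strand. *Baat* (ENSMUSG00000039653) lies at chr4:49502294-49519429, minus strand, *Nr1h4* (ENSMUSG00000047638) at chr10:88916979-88996330, minus strand, and *Nr0b2* (ENSMUSG00000037583) at chr4:133109291-133112451, plus strand. The transporters are *Slc10a1* (ENSMUSG00000021135) at chr12:82054172-82068971, minus strand, *Abcb11* (ENSMUSG00000027048) at chr2:69076339-69180671, minus strand, and *Abcb4* (ENSMUSG00000042476) at chr5:8893717-8959225, plus strand. Values were counted over the exons of each gene.

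The libraries held an estimated 12.2 to 48.8 M reads (median 26.7 M). The hepatocyte markers were abundant in all 80 libraries, with *Alb* never under 16059 RPKM, whereas 4 of 5 pancreatic markers, *Ctrb1*, *Pnlip*, *Cpa1* and *Amy2a5*, were listed at 0 in 53 to 79 of them. In whole liver, fewer cells of a type and less RNA per cell cannot be told apart. Library scaling matters late after PH: between X48 and S48 the median detected gene differed by 0.27 on the log2 scale, and giving every library the same median RPKM turned 90.1% of called genes higher into 38.8%.

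In unoperated livers at ZT 2 the levels of the members, on the log2 RPKM scale (per length), spanned more than 4 units. *Slc10a1* (8.08 ± 0.18, SD, n = 9), *Cyp27a1* (7.88 ± 0.23), *Cyp8b1* (7.71 ± 0.40), *Baat* (7.05 ± 0.08) and *Abcb11* (6.91 ± 0.36) were highest. *Cyp7b1* (6.43 ± 0.50), *Abcb4* (5.24 ± 0.26), *Nr1h4* (5.10 ± 0.22), *Nr0b2* (4.57 ± 0.66) and *Cyp7a1* (3.59 ± 1.14) followed. The step from *Cyp8b1* to *Baat* and that from *Cyp7b1* to *Abcb4* were larger than either SD, and all other neighbours in this order differed by less than the larger of their SDs. Across the 19 groups *Cyp7a1* covered the widest range, from −1.46 at X4 to 4.81 at X36, and *Nr1h4* the narrowest, from 4.57 at X4 to 5.70 at S10.

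**Figure D1:**
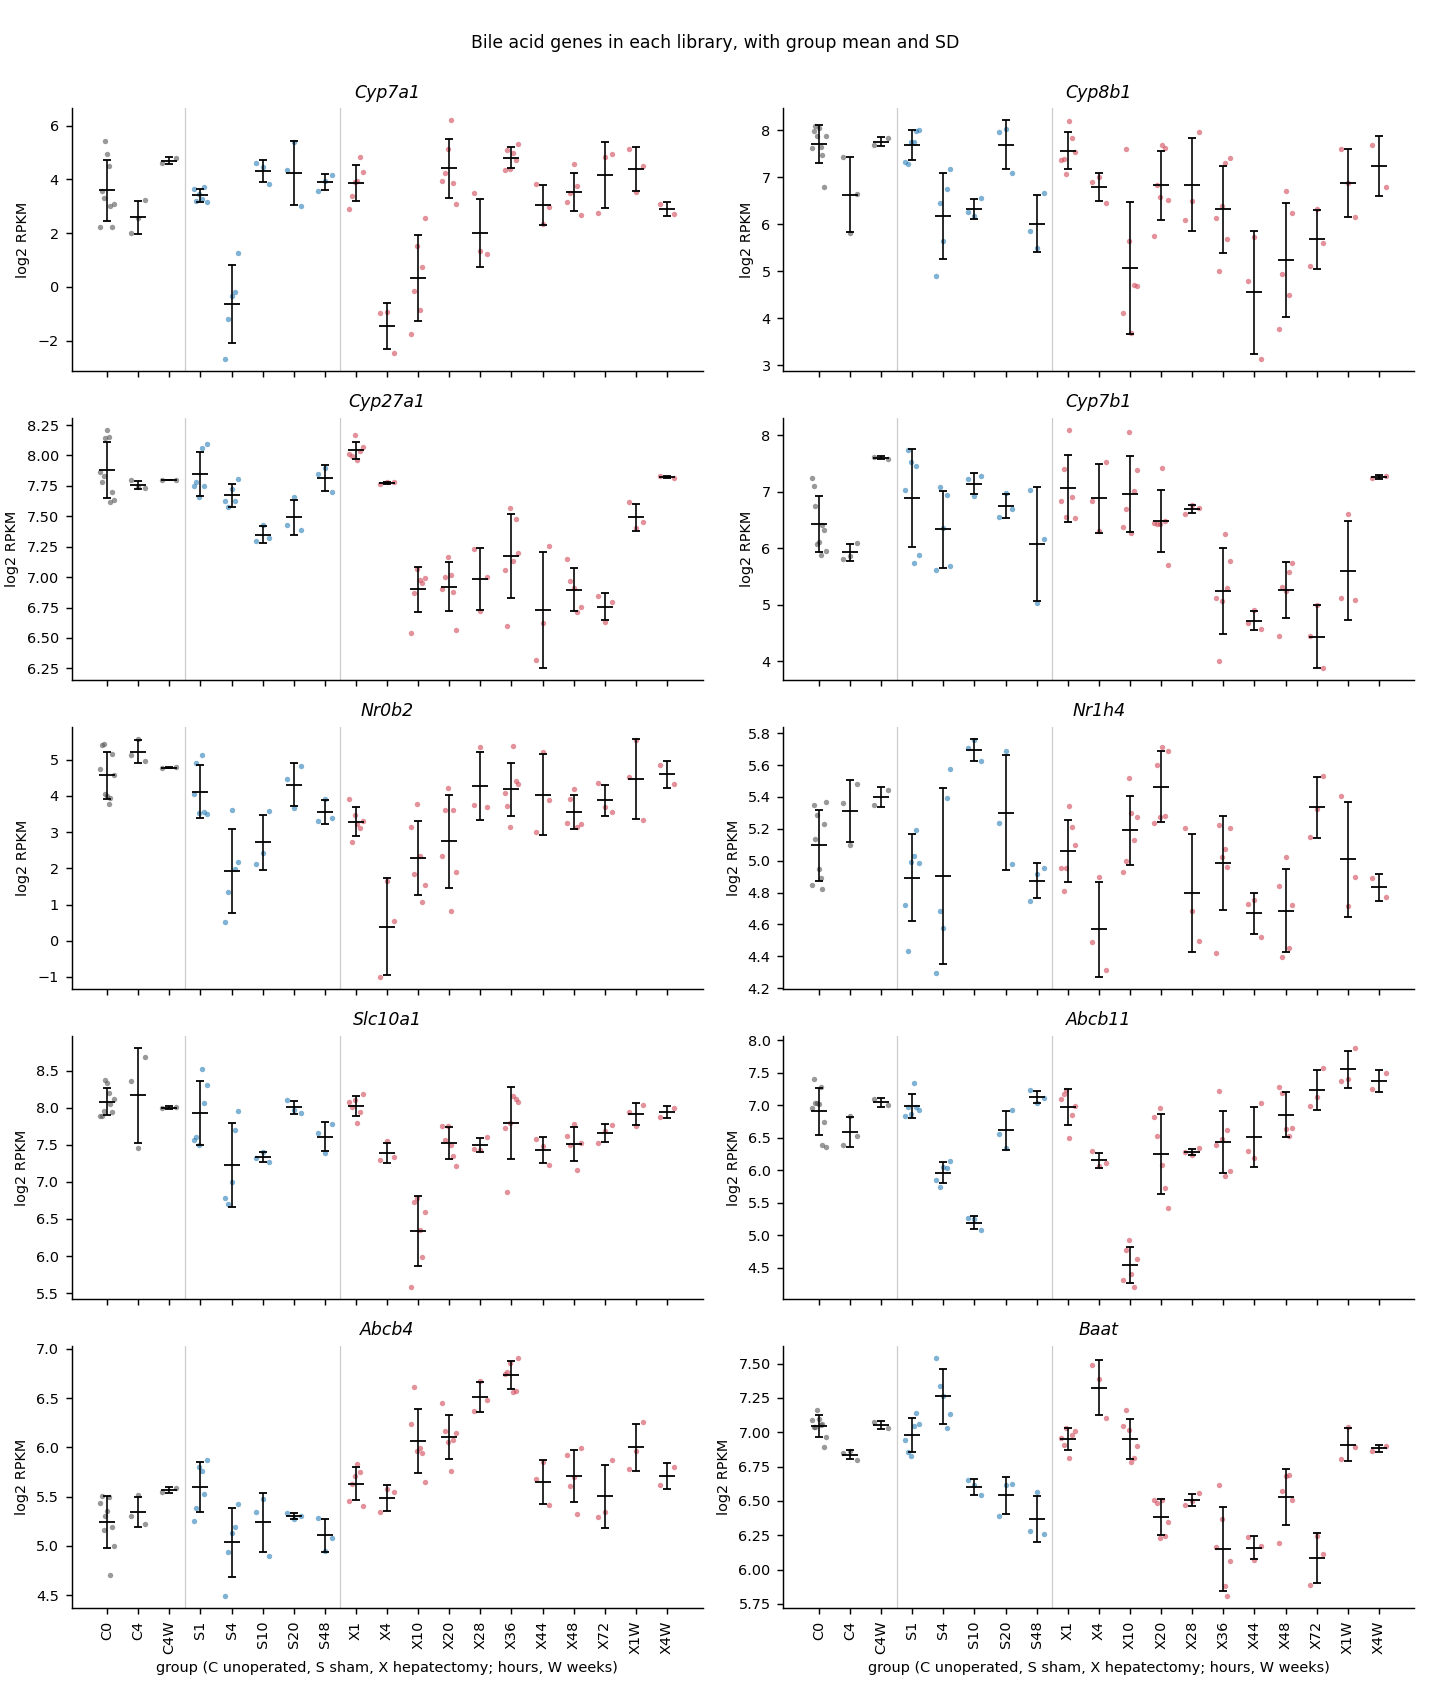
Level of each gene on the log2 RPKM scale (vertical axes, each with its own range) in every library of the unoperated (C), sham (S) and hepatectomy (X) groups, with the group mean and SD as bars. The lowest group of *Cyp7a1* and *Nr0b2* is X4, that of *Slc10a1* and *Abcb11* is X10, and *Abcb4* climbs to its highest group at X36.

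The comparison of PH with sham livers at the same hour asks what resection added to surgery. Differences below are log2 fold changes of RPKM with 0.25 added, from a limma model over all 80 libraries, and a gene is called when its Benjamini-Hochberg adjusted p over all detected genes is below 0.05 and the change exceeds 0.5. At 1 h none of the 10 genes was called, where 0.65% of all genes were (100 of 15396). An unadjusted p below 0.05 was reached by 0 of the 10, beside 1430 of the 15396 genes. At 4 h again none was called, against 8.64% of all genes, with 2 of 10 at an unadjusted p below 0.05, beside 4031 of 15396 genes. The S4 livers were not alike: replicates 1 to 3 and replicates 4 and 5 averaged −1.41 and 0.55 for *Cyp7a1*, 6.83 and 7.83 for *Slc10a1* and 4.52 and 5.48 for *Nr1h4* (log2 RPKM). For *Cyp7b1* they averaged 6.35 and 6.31. The X4 livers are replicates 4 to 6 only. Counts called against each S4 subset alone are given in the closing section. At 10 h 3 called (background 7.02%), 2 at 20 h (7.11%) and 2 at 48 h (27.2%). Over the members the median change was 0.06 at 1 h, 0.13 at 4 h, −0.48 at 10 h, −0.31 at 20 h and −0.23 at 48 h, beside medians over all detected genes of 0.01, −0.04, −0.0049, 0.07 and 0.27.

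*Cyp7a1*, the rate-limiting enzyme of the classic route, carried the largest PH difference among the members. At 10 h the sham livers had 4.61, 4.46 and 3.85 on the log2 RPKM scale, and the PH livers −1.76, −0.17, 1.52, −0.88, 0.75 and 2.56. All 6 PH livers lay under all 3 sham livers, although they differed among themselves by more than 4 units. *Cyp7a1* was thus 12.3-fold lower after PH at 10 h (log2 fold change −3.62 ± 0.60, SE; adjusted p = 1.66e-05, limma). At 4 h both arms were low, with −2.68, −1.19, −0.35, −0.18 and 1.28 in sham livers and −0.98, −0.93 and −2.45 in PH livers, so the arms overlapped (−0.62 ± 0.62, adjusted p = 0.598). The lowest of these libraries still held an estimated 22.9 reads of the gene. By 20 h the PH livers (3.10 to 6.20, n = 6) and sham livers (3.00 to 5.38, n = 3) overlapped, and so they did at 48 h (2.67 to 4.59 against 3.58 to 4.15). The PH effect itself differed between the times: at 48 h it was 3.28 ± 0.86 above that at 10 h (adjusted p = 0.00262), where 23.1% of all genes were called in this contrast of contrasts.

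*Cyp27a1*, the mitochondrial enzyme of the alternative route, differed from sham by less than 1 unit at each hour. At 10 h the PH livers (6.54 to 7.06) already lay below the sham livers (7.30 to 7.43), by 0.45 ± 0.14 (adjusted p = 0.0257), which is under the bound of 0.5; with only X10 replicates 1 to 3 the difference was −0.52 and was called. At 20 h sham livers had 7.43, 7.66 and 7.39 and PH livers 6.90, 7.00, 7.17, 7.01, 6.88 and 6.57, without overlap. It fell by 0.57 ± 0.14 on the log2 scale (adjusted p = 0.00417), a call that is lost at −0.48 without S20 replicate 2, at −0.50 without X20 replicate 6 and at −0.47 with only X20 replicates 1 to 3. At 48 h the sham livers had 7.85, 7.90 and 7.70 and the PH livers 7.15, 6.97, 6.91, 6.71 and 6.75. The groups were again apart, and *Cyp27a1* fell 1.89-fold (−0.91 ± 0.15, adjusted p = 4.71e-07), with the same call under each alternative tried.

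The other synthesis genes were more scattered. *Cyp8b1*, the sterol 12α-hydroxylase, gave −1.25 ± 0.55 at 10 h (adjusted p = 0.13), where 1 of the 6 PH livers had 7.60 and the others 3.69 to 5.64, against 6.17 to 6.57 in sham livers; without that liver (X10 replicate 2) the difference was −1.75 and was called. Its differences at 20 h (−0.87) and 48 h (−0.77) did not pass the test either. *Cyp7b1*, the oxysterol 7α-hydroxylase, was at 4.44 to 5.74 in 5 PH livers and at 5.02, 6.16 and 7.03 in 3 sham livers at 48 h (−0.81 ± 0.43, adjusted p = 0.121); the difference was called without S48 replicate 2 (−1.33) and with equal medians (−1.30). *Baat* ran higher in all 6 PH livers (6.79 to 7.16) than in the 3 sham livers (6.54 to 6.66) at 10 h, yet by 0.35 ± 0.11 (adjusted p = 0.0248), which is under the bound of 0.5. S10 and S20 livers came from 1 period and X10 and X20 livers from 2. The contrasts were also taken with 1 triplet of PH livers at a time, split by replicate number, which is not known to follow the period. With X10 replicates 1 to 3 or 4 to 6 alone *Cyp7a1* was −4.01 and −3.24, *Slc10a1* −0.96 and −1.02 and *Abcb4* 1.02 and 0.62, all called, and *Cyp8b1* was −0.55 and −1.96, the latter called. With X20 replicates 1 to 3 or 4 to 6 alone *Abcb4* was 0.92 and 0.68, both called, and *Nr0b2* −0.90 and −2.12, the latter called.

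**Figure D2:**
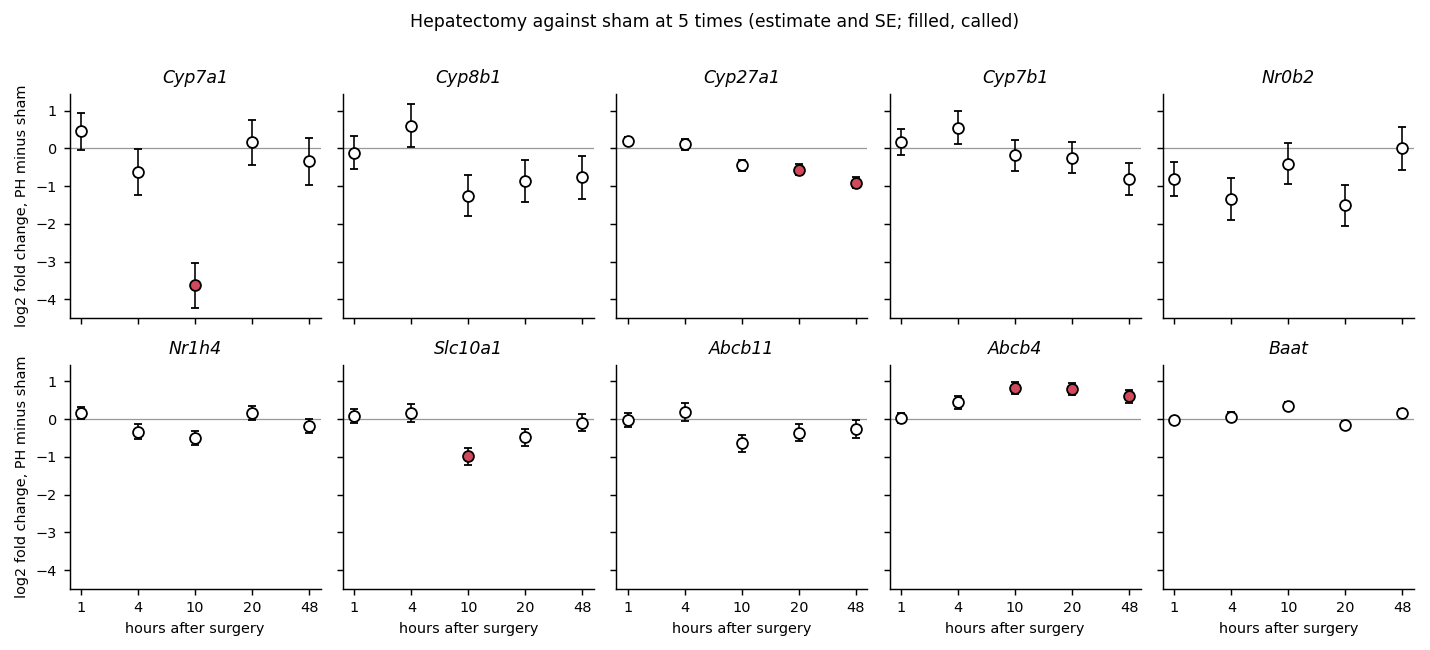
Log2 fold change of PH over sham livers (vertical axes) by hours after surgery (1 to 48 h) for each gene, as the limma estimate with its SE; filled circles were called. *Cyp7a1* stands out at 10 h (−3.62), *Slc10a1* falls at the same hour (−0.99), and *Abcb4* is above 0 and called at 10, 20 and 48 h.

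The regulators showed no called difference between PH and sham livers. *Nr0b2* gave differences that did not pass the test, −0.81 at 1 h, −1.34 at 4 h and −1.51 at 20 h, each ± 0.45 to 0.56 (adjusted p = 0.61, 0.105 and 0.0556). At 20 h the PH livers had 2.34, 3.60, 4.23, 0.82, 3.60 and 1.90, and the sham livers 4.46, 3.65 and 4.82, so that 1 PH liver lay in the sham range. The 20 h difference was called on leaving out X20 replicate 2, 3 or 5 (−1.67 to −1.79) and with equal medians (−1.59). It was also called over genes with log2 RPKM above 0 in at least 3 libraries (−1.51). The 4 h difference of *Nr0b2* was called without S4 replicate 1 (−1.66). *Nr1h4* was 5.71, 5.76 and 5.62 in sham livers at 10 h and 4.93 to 5.52 in PH livers, which lay below them without overlap (−0.50 ± 0.19, adjusted p = 0.0698).

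*Nr0b2* is shown with the bases before its start because SHP is switched on through nuclear receptor elements next to the promoter, and *Abcb11* because it is the best known direct FXR target among the transporters. RefSeq promoters of GRCm38.p6 were at hand for 7 of the 10 genes, with 2 starts for *Slc10a1*; *Cyp7a1*, *Cyp7b1* and *Baat* had no entry. The letters TCAAGG (the core of the LRH-1 element, *Nr5a2*), AGGTCANTGACCT (an inverted repeat read by FXR with RXR) and TTATGTAA (a D-box, the element of DBP) were sought on both strands in the 250 bases before each start, and none of them overlapped another. TCAAGG occurred at 2 places in *Nr0b2* on the coding strand, its first base at −68 and −35 from the start, and in no other member; 12.5% of 32851 promoters hold it. The inverted repeat (0.00609% of promoters) and the D-box (0.819%) were in none of the 8 windows. Only exact matches were sought, and just 2 of 32851 promoters hold the exact inverted repeat. Its absence therefore cannot tell whether a window holds an FXR site with other letters. Capitals mark TCAAGG in the windows chr4:133553126-133553375 (plus strand, *Nr0b2*) and chr2:69342617-69342866 (minus strand, *Abcb11*), written 5′ to 3′.
Nr0b2: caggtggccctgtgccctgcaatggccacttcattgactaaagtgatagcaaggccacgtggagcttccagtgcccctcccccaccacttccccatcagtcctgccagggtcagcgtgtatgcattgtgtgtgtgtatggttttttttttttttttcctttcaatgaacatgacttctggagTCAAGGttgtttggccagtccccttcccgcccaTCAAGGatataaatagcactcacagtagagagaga
Abcb11: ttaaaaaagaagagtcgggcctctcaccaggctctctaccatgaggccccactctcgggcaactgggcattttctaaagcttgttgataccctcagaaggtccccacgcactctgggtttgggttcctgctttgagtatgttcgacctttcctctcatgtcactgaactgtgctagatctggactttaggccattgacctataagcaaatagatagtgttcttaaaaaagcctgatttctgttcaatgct

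Transporters moved in opposite directions. *Slc10a1*, the basolateral uptake carrier, had 7.32, 7.40 and 7.27 in sham livers at 10 h and 5.59, 6.73, 6.78, 6.35, 5.99 and 6.59 in PH livers. Every PH liver was lower, and *Slc10a1* fell 1.99-fold (−0.99 ± 0.22, adjusted p = 0.00156). Its PH effect at 48 h was 0.90 ± 0.32 above that at 10 h (adjusted p = 0.0304), a call lost under 3 alternatives (0.40 with equal medians) and on leaving out any 1 of 7 libraries: S10 replicates 1 and 2, S48 replicates 1 and 2, X10 replicates 1 and 5, and X48 replicate 3 (0.75 to 0.92).

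*Abcb4*, the phospholipid floppase of the canalicular membrane, ran the other way. At 10 h sham livers had 5.34, 5.47 and 4.90 and PH livers 6.23, 6.61, 5.96, 6.00, 5.94 and 5.65, all above the sham livers. *Abcb4* rose 1.77-fold at 10 h (0.82 ± 0.17, adjusted p = 0.000375) and 1.74-fold at 20 h (0.80 ± 0.17, adjusted p = 0.000675), where PH livers had 5.76 to 6.45 and sham livers 5.28 to 5.33. At 48 h it was 1.52-fold higher (0.60 ± 0.17, adjusted p = 0.00295), with 5.92, 5.61, 5.70, 5.33 and 5.99 in PH livers against 5.29, 4.95 and 5.08. The 48 h difference shrank to 0.11 and was not called once every library had the same median RPKM.

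*Abcb11*, the bile salt export pump, was low in both arms at 10 h, with 5.26, 5.25 and 5.07 in sham livers and 4.21 to 4.93 in PH livers. The PH livers did not overlap the sham livers, but −0.64 ± 0.23 had an adjusted p of 0.0529. The difference was called with equal medians and over genes with log2 RPKM above 0 in at least 3 libraries (−0.64 each). It was also called without X10 replicate 2 (−0.69) or 3 (−0.72). With S10 and X10 fitted alone, 5 members rather than 3 were called at 10 h, *Abcb11* and *Nr1h4* among them. The share of all genes called in that fit is not given here. Of the marker lists, summed small intestine markers, mostly *Apoa4*, which hepatocytes also make, were 627 to 3883 RPKM in X10 and 363 to 617 in S10, with 1 of 3 called higher. Hepatocyte markers summed to 27844 to 33389 and 29706 to 33754. Stellate cell markers summed to 43.4 to 54.4 RPKM in X10 and 27.9 to 40.8 in S10, with 1 of 5 called higher. At 20 h stellate cell markers summed to 52.8 to 73.8 RPKM in X20 and 30.4 to 49.7 in S20, with 2 of 5 called higher. At 48 h, 3 of 6 hepatocyte markers were called lower after PH (31554 to 37087 RPKM summed, against 35653 to 45634) and 2 of 5 stellate cell markers higher (48.8 to 87.0 against 45.6 to 49.1). Their part in the results was not tested.

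Comparing operated with unoperated livers of the same time of day asks what surgery of either kind did. At 4 h after surgery (ZT 6), 4 of 10 members were called in sham livers against C4, where 43.3% of all genes were, and 4 of 10 in PH livers, where 45.6% were, so the share of members was near the background. Both comparisons use the same 3 C4 livers. Those came from a period without operated mice, so surgery and period cannot be told apart in any contrast of operated livers with C4. The median detected gene was lower by 0.22 in S4 and by 0.26 in X4, and with equal medians these shifts were −0.04 and −0.06.

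*Nr0b2* and *Cyp7a1* were the members that moved furthest. *Nr0b2* had 5.14, 5.58 and 4.96 in C4 livers, 0.51, 1.35, 3.62, 1.98 and 2.18 in S4 livers and −1.01, 1.64 and 0.55 in X4 livers, with no overlap of either operated group with C4. It fell 9.17-fold after sham surgery (−3.20 ± 0.56, adjusted p = 2.21e-06) and 23.2-fold after PH (−4.54 ± 0.63, adjusted p = 1.01e-08). *Cyp7a1* had 1.99, 2.55 and 3.23 in C4 livers, above every S4 and X4 liver given before. It fell 6.46-fold after sham surgery (−2.69 ± 0.62, adjusted p = 0.000156) and 9.94-fold after PH (−3.31 ± 0.69, adjusted p = 3.94e-05). Since 0.25 RPKM was added and *Cyp7a1* averaged 0.404 RPKM in X4, its fold change is understated. Among the 9 C0 livers, from all 3 periods but at ZT 2, *Nr0b2* was never under 3.78 and *Cyp7a1* never under 2.23, above every S4 and X4 liver. Both genes kept these calls under every alternative run. The mRNAs of *Nr0b2* and *Cyp7a1* were thus both low in the same livers, and whether one bears on the other was not tested.

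**Figure D3:**
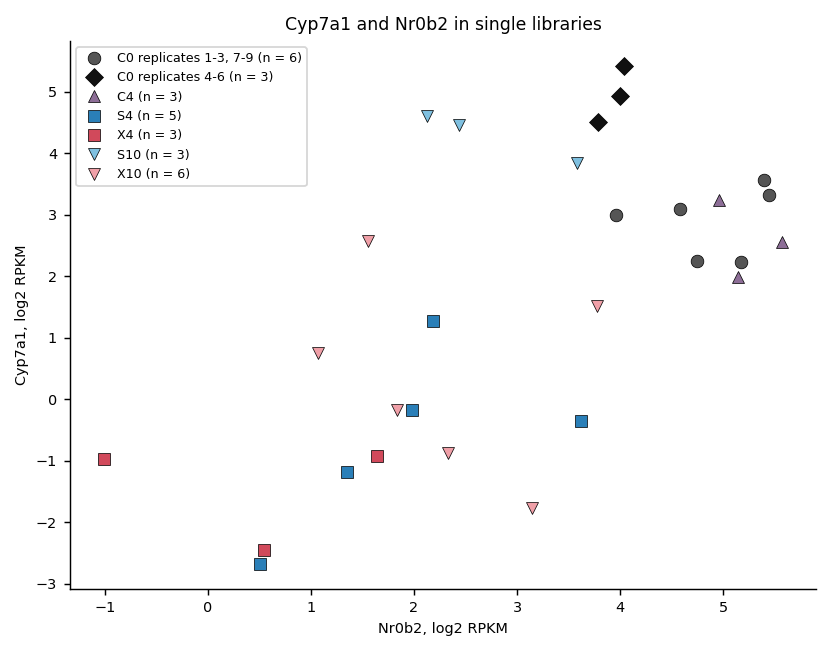
*Cyp7a1* (vertical axis) against *Nr0b2* (horizontal axis), both in log2 RPKM, in single libraries of 6 groups, with C0 replicates 4 to 6 marked apart. The S4 and X4 livers lie at the lower left, the C4 livers and most C0 livers at the right, and S10 livers pair *Cyp7a1* of 3.85 to 4.61 with *Nr0b2* of 2.13 to 3.59.

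The differences of the other members at 4 h were smaller. *Cyp7b1* had 5.82, 5.87 and 6.10 in C4 livers and 6.84, 6.30 and 7.52 in X4 livers, without overlap, but 0.95 ± 0.48 did not pass the test (adjusted p = 0.0826); it was called with equal medians (1.24) and without X4 replicate 5 (1.25). *Slc10a1* had 8.37, 7.45 and 8.68 in C4 livers, which spread over more than 1 unit and overlapped both operated groups. It fell by 0.94 ± 0.23 in S4 (adjusted p = 0.000435) and by 0.77 ± 0.26 in X4 (adjusted p = 0.00891). Fitted with the compared groups alone neither difference was called, and the X4 difference was not called without C4 replicate 3 (−0.52) or with equal medians (−0.49). *Abcb11* fell by 0.62 ± 0.24 in S4 (adjusted p = 0.0216), a call lost without C4 replicate 2 (−0.49), without the filter on low values and under both other scalings (−0.38 and −0.49). *Nr1h4* fell by 0.74 ± 0.22 in X4 (adjusted p = 0.00285), and at equal medians it was −0.46 and not called. *Baat* was 6.80 to 6.86 in C4 livers, 7.03 to 7.54 in S4 and 7.10 to 7.49 in X4; the differences of 0.42 and 0.49 were below the bound, and both were called (0.66 and 0.77) with equal medians.

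Several clock genes of the pathway list differed in the same comparisons. *Dbp*, the clock output factor that activates *Cyp7a1*, averaged 4.53 in C4, −0.35 in S4 and −2.17 in X4 (log2 RPKM), and was lower in PH than in sham livers at 4 h (−1.14 ± 0.34, adjusted p = 0.0143) and at 10 h (−1.41 ± 0.33, adjusted p = 0.00208). *Nr1d1* (REV-ERBα) was 2.84-fold lower in S4 and 9.53-fold lower in X4 than in C4, and *Nfil3*, a D-box repressor, was higher by 1.88 and 1.90. The part of these clock genes in the *Cyp7a1* values was not tested. All 5 stellate cell markers and all 4 B cell markers were called lower in both operated groups, with summed stellate markers of 70.2 to 82.9 RPKM in C4, 30.4 to 48.9 in S4 and 35.8 to 45.8 in X4, and summed B cell markers of 2.46 to 4.39, 0.091 to 0.719 and 0.155 to 0.302. In C4 itself 3 of 4 B cell markers were called higher than in C0, where they summed to 0.390 to 3.15 RPKM. Of the stellate cell markers 0 of 5 were called between C4 and C0. Neutrophil markers summed to 1.02 to 4.47 RPKM in C4, 6.79 to 40.6 in S4 (3 of 4 called higher) and 4.36 to 9.23 in X4 (0 of 4 called). The part of these cells in the results was not tested.

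Later PH livers were compared with unoperated livers of the same hour of the day. At 28 h (ZT 6, against C4), 4 of 10 members were called beside 32.7% of all genes. *Abcb4* was 6.37, 6.68 and 6.48 in PH livers and 5.30, 5.52 and 5.22 in C4 livers, and it rose 2.23-fold (1.16 ± 0.19, adjusted p = 1.28e-06). *Cyp27a1* fell by 0.77 ± 0.16 (7.23, 6.72 and 7.00 against 7.80, 7.74 and 7.73, adjusted p = 9.63e-05). The other calls, *Slc10a1* (−0.67) and *Nr1h4* (−0.52), were each lost when any 1 of 4 libraries was left out: C4 replicates 1 and 3 for both (down to −0.42 and −0.43), X28 replicates 1 and 2 for *Slc10a1*, and X28 replicates 2 and 3 for *Nr1h4*. Between X28 and X4, at the same ZT, *Cyp7a1* rose 6.85-fold and *Nr0b2* 12.0-fold, *Abcb4* rose 2.03-fold, and *Cyp27a1* (−0.79) and *Baat* (−0.81) fell, so that 5 of 10 members were called beside 28.3% of all genes. *Cyp7a1* then stood at 3.48, 1.34 and 1.21 and *Nr0b2* at 3.74, 5.36 and 3.71, and against C4 neither difference passed the test (−0.54, adjusted p = 0.559, and −0.95, adjusted p = 0.226).

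At ZT 2 the operated livers were set against the 9 C0 livers. At 48 h, 2 of 10 members were called after sham surgery (8.88% of all genes) and 6 of 10 after PH (38.1%), all 6 lower, where 7.66% of all genes were called lower (20.7% with equal medians). At 72 h 4 of 10 were called, again all lower, beside 33.2% of all genes called in either direction and 6.59% called lower (16.6% with equal medians). At 1 week 2 of 10 were called, both higher, beside 16.9%, and at 4 weeks against C4W none was, beside 0.065% (10 genes), with 2 of 10 members at an unadjusted p below 0.05. The labels give no hour of day for the 1-week and 4-week livers. The comparisons with C0 share its 9 livers, which span 3 periods, whereas S48, X48, X72 and X1W livers came from 1, and the C0 livers of that period could not be picked out by number.

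*Cyp8b1* was 6.80 to 8.09 (median 7.87) in C0. It was 5.86, 5.49 and 6.68 in S48, 3.78, 4.95, 6.72, 4.49 and 6.23 in X48 and 5.10, 6.33 and 5.60 in X72, all below every C0 liver. It fell 3.25-fold in S48 (−1.70 ± 0.52, adjusted p = 0.0156), 5.54-fold in X48 (−2.47 ± 0.43, adjusted p = 1.11e-06) and 4.09-fold in X72 (−2.03 ± 0.52, adjusted p = 0.000687). The S48 call was lost without S48 replicate 1 (−1.63) or 2 (−1.44) and against any 1 triplet of C0 livers (−1.37 to −1.89). The lowest group of *Cyp8b1* was X44, with 4.79, 5.72 and 3.14.

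*Cyp7b1* followed a similar late course after PH. C0 livers had 5.89 to 7.25 (median 6.33), X48 livers 4.44, 5.31, 5.24, 5.58 and 5.74, and X72 livers 4.44, 4.99 and 3.88. All 8 PH livers were below the C0 range, and *Cyp7b1* fell 2.24-fold at 48 h (−1.16 ± 0.33, adjusted p = 0.00157) and 3.94-fold at 72 h (−1.98 ± 0.39, adjusted p = 1.89e-05). The 48 h call was lost at −0.76 against C0 replicates 4 to 6 alone. At 1 week it had 5.12, 6.61 and 5.08 and was not called (−0.82, adjusted p = 0.0968), but it was called lower without X1W replicate 2 (−1.32), with equal medians (−1.04) and against C0 replicates 1 to 3 alone (−1.43); at 4 weeks 7.24 and 7.29, beside 7.62 and 7.59 in C4W.

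*Cyp27a1* was 7.61 to 8.21 in C0, 6.71 to 7.15 in X48 and 6.63 to 6.84 in X72, and fell 1.98-fold and 2.18-fold (−0.98 ± 0.11 and −1.13 ± 0.13, adjusted p = 1.05e-11 and 1.13e-10). *Baat*, with 6.89 to 7.17 in C0, was 6.28, 6.56 and 6.26 in S48 and 5.89, 6.25 and 6.12 in X72. It fell by 0.68 in S48, by 0.52 in X48 and by 0.96 in X72 (SE 0.09 to 0.10), and in none of these did the operated livers overlap C0; the X48 call was lost without X48 replicate 1 (−0.43). *Slc10a1* fell by 0.57 ± 0.18 in X48, and that call was lost without X48 replicate 4 (−0.48) and against C0 replicates 1 to 3 (−0.40) or 7 to 9 (−0.52) alone. *Nr0b2* was lower by 1.01 in both 48 h groups, and was called in X48 alone (adjusted p = 0.0385 against 0.17 in S48); in X48 leaving out any 1 of 7 libraries (C0 replicates 1, 2, 3 and 8, X48 replicates 1, 4 and 5) ended the call, at −0.90 to −0.98, as did C0 replicates 4 to 6 alone (−0.38), 7 to 9 alone or 1 to 6 (−1.01 each) and leaving out the filter on low values (−1.01).

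*Abcb11* and *Abcb4* were higher at 1 week. *Abcb4* had 5.78, 5.96 and 6.26 in X1W against 4.70 to 5.51 in C0, and rose 1.69-fold (0.76 ± 0.16, adjusted p = 0.000127). *Abcb11* had 7.38, 7.40 and 7.88 against 6.35 to 7.40 and rose by 0.64 ± 0.22 (adjusted p = 0.0163); the call was lost without X1W replicate 3 (0.48), with equal medians (0.42) and against C0 replicates 1 to 3 alone (0.42). At 4 weeks *Cyp7a1* was 3.09 and 2.73 in X4W and 4.60 and 4.79 in C4W (−1.75 ± 0.84, adjusted p = 1), with 2 livers a group.

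**Figure D4:**
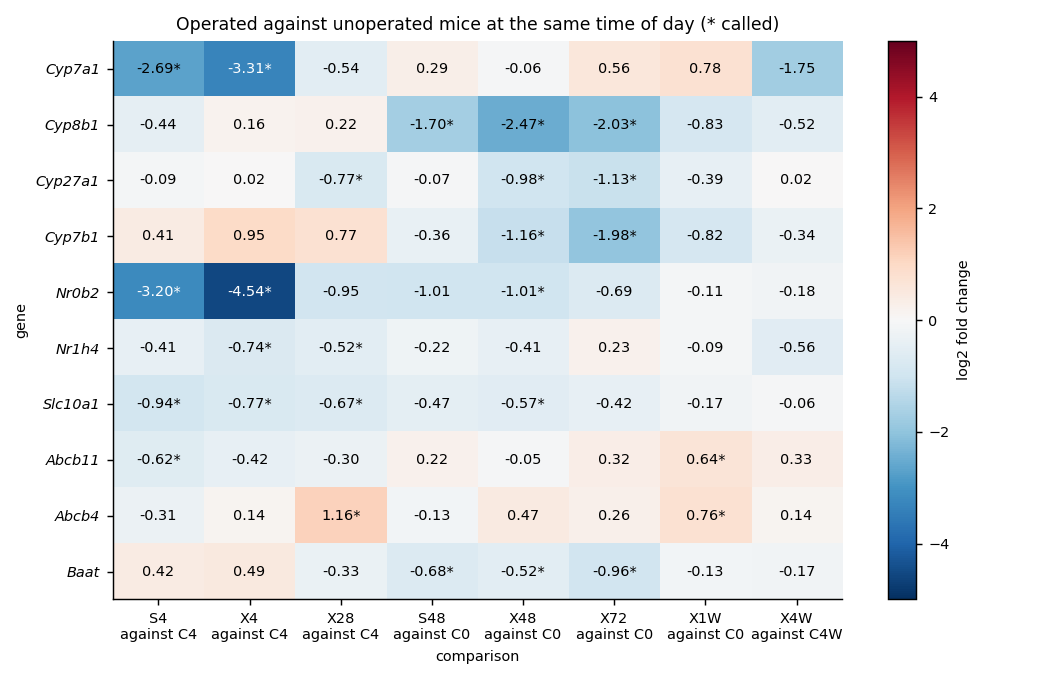
Log2 fold change (colour and printed value) of each gene (rows) between operated and unoperated livers (columns). An asterisk marks a called difference. The 4 to 72 h columns compare livers of the same time of day, and the labels give no hour of day for the 1-week and 4-week livers. The early columns are led by *Nr0b2* (−4.54 in X4) and *Cyp7a1* (−3.31 in X4), and the 48 and 72 h columns by *Cyp8b1* (−2.47 and −2.03) and *Cyp7b1* (−1.16 and −1.98).

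The other groups differ from C0 in time of day as well as in surgery, and these cannot be told apart there, except in C4. No member was called by limma in C4 or S1 against C0 (7.89% and 7.77% of all genes). An unadjusted p below 0.05 was reached by 2 and 1 of 10 members, beside 4607 and 5714 of 15396 genes. In X1 only *Nr0b2* was called (−1.26 ± 0.41, adjusted p = 0.0115, background 13.5%). That call depends on the C0 livers used (not called against C0 replicates 4 to 6, −0.63, or 7 to 9, −1.26). At ZT 12, 6 of 10 were called in S10 (29.1%) and 7 in X10 (36.4%). *Abcb11* gave the largest of these for its error, falling 3.27-fold in S10 (−1.71 ± 0.22, adjusted p = 1.39e-09) and 5.11-fold in X10 (−2.35 ± 0.17, adjusted p = 3.38e-19). At ZT 22, 1 of 10 was called in S20 (*Baat*, −0.50, lost without C0 replicate 1, 4 or 5 or S20 replicate 1; 12.1%) and 6 in X20 (24.1%). At ZT 14, X36 had 6 called (35%), led by *Abcb4*, with 6.56 to 6.91 in 6 PH livers, which rose 2.81-fold (1.49 ± 0.12, adjusted p = 6.86e-17). From X20 to X44, both at ZT 22, *Cyp8b1* (−2.27 ± 0.55), *Cyp7b1* (−1.76 ± 0.41) and *Nr1h4* (−0.79 ± 0.19) fell, 3 of 10 beside 16.1% of all genes; the *Cyp8b1* call was lost without X44 replicate 3 (−1.57).

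*Cyp7a1* in the C0 livers bears on its contrasts with C0. C0 replicates 4 to 6 had 5.42, 4.93 and 4.50, above the other 6 C0 livers, which had 2.23 to 3.57. *Nr0b2* was 4.04, 4.00 and 3.78 in replicates 4 to 6 and 3.96 to 5.44 in the others. Of the contrasts with C0, *Cyp7a1* was called higher only in X36 (1.20 ± 0.44, adjusted p = 0.0163), and against replicates 4 to 6 alone that difference was −0.13. *Cyp7b1* split otherwise, with 7.25, 7.11 and 6.75 in C0 replicates 1 to 3 and 5.89 to 6.41 in the other 6.

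The wider pathway list held 54 further genes, 50 of them detected: 17 for synthesis and conjugation, 14 for transport and 19 for regulation. Against sham livers, 2 of 50 were called higher and 0 lower at 1 h, 5 and 3 at 4 h, 3 and 6 at 10 h, 1 and 4 at 20 h, and 4 and 4 at 48 h, beside the backgrounds given above. At 10 h the lower ones included *Akr1c14* (−1.89 ± 0.26) and *Akr1d1* (−0.95 ± 0.27), the steroid dehydrogenase and reductase that act downstream of CYP7A1, *Cyp2c70* (−1.05 ± 0.36), which makes muricholic acids, and *Slco1b2* (−0.95 ± 0.19), a sinusoidal uptake carrier. *Ppargc1a*, a fasting-induced coactivator, was higher at 10 h (1.45 ± 0.28, adjusted p = 0.000192). At 48 h *Slc27a5*, the bile acid CoA ligase that acts before BAAT, was lower (−0.98 ± 0.12, adjusted p = 3.37e-10), as were the sterol exporters *Abcg5* (−0.69) and *Abcg8* (−1.08), while *Ostb* (1.59 ± 0.57), part of the basolateral bile acid exporter, *Slco1a4* (1.09), the racemase *Amacr* (0.60) and the epoxide hydrolase *Ephx1* (0.56) were higher. With equal medians those 4 higher genes were no longer called (1.13, 0.61, 0.10 and 0.07), and 14 of 50 were called lower. Of all genes 11.2% were then called lower, and 2.69% without that scaling.

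Against unoperated livers of the same hour, 6 of the 50 were called higher and 20 lower in S4, and 5 and 17 in X4, which is 52% and 44% of the list beside 43.3% and 45.6% of all genes, near the background. *Klb*, the co-receptor for the intestinal hormone FGF15, was lower by 1.81 and 2.09, *Nr1i3* (CAR) by 2.85 and 2.77, and *Abcg8* by 1.85 and 1.42, while *Hnf4a*, the hepatocyte factor that activates *Cyp7a1* and *Cyp8b1*, was higher by 1.21 and 0.88. With equal medians the S4 split was 10 higher and 15 lower, and the X4 split 11 and 11. Over all 15396 genes the splits were then 2893 higher and 3399 lower in S4, and 2905 and 3627 in X4. In X72, 11 were called higher and 8 lower, 38% of the list beside 33.2% of all genes, led by *Ostb* (3.06 ± 0.52) and by the uptake carrier *Slco1a1*, which was 11.1-fold lower (−3.47 ± 0.34). With equal medians the X72 split was 4 higher and 16 lower, beside 1760 and 2553 of all 15396 genes.

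Over the means of the 19 groups, *Slc10a1* and *Abcb11* ran together most closely among the members (Pearson r = 0.81), followed by *Cyp8b1* and *Cyp27a1* (0.72) and *Cyp27a1* and *Baat* (0.69). *Cyp7a1* and *Nr0b2* had r = 0.65, and the lowest pairs were *Cyp7a1* with *Baat* (−0.56) and *Cyp27a1* with *Abcb4* (−0.49). These values describe 19 groups whose livers share surgery and hour, and carry no test. Among 10201 genes, the one most like *Abcb11* was *Tlcd2* (r = 0.96), followed by the bile acid reductase *Akr1d1* (0.95) and *Echs1* (0.95). The nearest to *Slc10a1* was *Fggy* (0.94), to *Cyp27a1* 2810007J24Rik (0.94), to *Cyp7a1* *Lrrc3* (0.91), to *Nr0b2* *Vamp5* (0.91), to *Abcb4* *Tmem56* (0.91), to *Cyp7b1* *Ces4a* (0.90), to *Cyp8b1* *Cyp2d11* (0.86), to *Baat* *Tdo2* (0.85) and to *Nr1h4* *Rabggta* (0.78).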

How the data were processed

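Poly(A) RNA of single livers was sequenced (stranded, single-end, 100 nt). The authors trimmed reads with Cutadapt and prinseq-lite, aligned them to mm9 with TopHat2 2.0.13 and Bowtie2, used SAMtools 0.1.19, and counted them with featureCounts on the transcribed strand, a read at several positions counting as a fraction. The deposited values are log2 RPKM, with genes without reads listed at −14.29 (52.9% of values). Depth was estimated from these values, since total counts were not among them.

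Of 84 value columns, 80 matched the labels and 4 did not and were not used; 7 of 87 labelled samples were not analysed here. Groups were fitted together in limma 3.58.1 (R 4.3.3) with a trended prior on log2(RPKM + 0.25), over genes above −1.5 in at least 1 library, and p-values were adjusted by Benjamini-Hochberg within each comparison. Fold changes on this scale understate low genes. Each library is 1 mouse, and no term for the experimental period was fitted. The p-values thus rest on the spread within groups, pooled over all groups. That spread takes in differences between periods for groups from more than 1 period, and none for groups from 1. By replicate number, *Cyp27a1* in C0 averaged 7.83, 8.17 and 7.65 in replicates 1 to 3, 4 to 6 and 7 to 9, with SDs of 0.04 to 0.05. Whether these replicate numbers follow the periods is not known. The procedure was tested on simulated data.

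The members, the pathway and marker lists and the tests were chosen with earlier results of these data known. Genes named are the 10 members, for each the genes most like it over group means, and listed pathway genes called in the comparison discussed. Alternatives were the pseudocount (0.05 or 1), the filter, 2 scalings, no trend, the compared groups alone, a replicate block, subsets of replicates and leaving out each library; subsets of X10, X20 and X36 livers against C0 were added after seeing the data.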

Additional observations from a re-analysis of the deposited data

Results flagged for a closer look

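In 4 of 80 sets of values (10 genes in each of 8 groups of 4 to 10 livers), 1 liver stood apart from the others of its group by Dixon's test at the 95% level, which chance gives in about 1 of 20 such sets. *Cyp8b1* was 6.80 on the log2 RPKM scale in C0 replicate 8 and 7.48 to 8.09 in the other C0 livers. *Nr1h4* was 4.42 in X36 replicate 1 and 4.96 to 5.22 in the others. *Slc10a1* was 6.87 in X36 replicate 2 and 7.73 to 8.16 in the others. *Abcb11* was 7.35 in S1 replicate 4 and 6.83 to 6.98 in the others.

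The PH-sham difference changed between 10 and 48 h, by limma's test of the difference itself, for *Cyp7a1* (48 h above 10 h by 3.28, adjusted p = 0.00262) and for *Slc10a1* (by 0.90, adjusted p = 0.0304).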

How the results depend on the processing

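Of 70 called differences of the members (of 240 in 24 comparisons), 40 kept their call and direction under every alternative run. A further 128 differences of at most 0.5 that were not called were not followed one by one; 29 of them gained a call and 76 changed sign somewhere. Same-numbered livers did not deviate together in every pair of any comparison, so numbers were not taken to pair them. With the replicate block, *Abcb11* in X1W (0.29) and *Cyp7a1* in X36 (0.80) lost their calls against C0, and *Nr1h4* in X10 against S10 (−0.61) and *Baat* in X4 against C4 (0.58) gained one. Low estimated reads limit *Cyp7a1* and *Nr0b2* at 4 h.

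These counts of members called moved by more than 1.5 times. With the replicate block the count was 1 for C4 against C0, 1 for X1W against C0 and 2 for S20 against C0. With equal medians it was 5 for X48 against S48 (2817 of 15396 genes called, 4187 without that scaling) and 1 for S1 against C0 (1060, 1197 without). With the same scaling it was 2 for S20 against C0 (1931, 1869 without) and 6 for X44 against X20 (2415, 2472 without). For the 48 h minus 10 h contrast it was 4 (2018, 3550 without). With equal totals without the 50 most abundant genes it was 2 for X28 against C4 and 0 for S20 against C0. Without a filter it was 2 for X28 against C4 and 1 for the 48 h minus 10 h contrast. With the compared groups alone it was 5 for X10 against S10 and 1 for X1W against C0. With only S4 replicates 1 to 3, or 4 and 5, it was 1 for X4 against S4. With only X20 replicates 1 to 3 it was 1 and with 4 to 6 it was 4 for X20 against S20. With only C0 replicates 1 to 3 it was 1 for S48 and 3 for S10; with 4 to 6, 1 for C4, 1 for S48, 0 for X1 and 2 for S20; with 7 to 9, 1 for S1 and 0 for S20; with 1 to 6, 2 for S20. Leaving out 1 library at a time changed counts within these ranges: 0 to 1 for X4 against S4, 3 to 5 for X10 against S10, 1 to 3 for X20 against S20, 2 to 3 for X48 against S48, 4 to 5 for S4 and 3 to 5 for X4 against C4, 2 to 4 for X28 against C4, 2 to 4 for X44 against X20, 1 to 3 for the 48 h minus 10 h contrast and, against C0, 1 to 2 for S48, 4 to 6 for X48, 1 to 3 for X1W, 5 to 6 for S10, 0 to 1 for S20, 4 to 7 for X20 and 6 to 7 for X36. Apart from equal medians, the share of all genes called under each alternative is not given here, so those member counts have no background beside them. The causes were not tested.

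Of the differences followed one by one, 8 changed sign. *Cyp8b1* in X4 was −0.18 against S4 replicates 4 and 5 alone. Against C0 replicates 4 to 6 alone *Cyp7a1* was −0.77 in X72, −0.56 in X1W, −0.64 in S10, −0.70 in S20, −0.53 in X20 and −0.13 in X36. *Cyp7b1* in X10 was −0.071 against C0 replicates 1 to 3 alone.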
